A study of Homo sapiens with 8 samples.

Results

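The clade B serpins are the intracellular branch of the serpin superfamily of protease inhibitors. The 10 genes of this clade present in the expression table were examined, SERPINB1, SERPINB2, SERPINB3, SERPINB4, SERPINB5, SERPINB6, SERPINB7, SERPINB8, SERPINB9 and SERPINB13, out of 13842 genes in all. They were picked out by gene symbol, but the set was chosen with earlier results of these data known. The shares of all genes given beside them below are therefore a description and no test of the set. SERPINB10, SERPINB11 and SERPINB12 were not analysed here. The libraries came from the human cell lines MCF10A and MCF10 DCIS.COM, here called DCIS.COM. MCF10A is an immortal breast epithelial line that the paper treats as normal. DCIS.COM is the line that the paper uses for ductal carcinoma in situ, the pre-invasive stage of breast cancer. Each line had been stably transduced with a lentiviral vector, either pLOC-empty or pLOC-MALINC1, which overexpresses the long non-coding RNA MALINC1, and both vectors were selected with 10 µg/mL blasticidin. Each of the 4 groups had 2 libraries, made from subconfluent plates. MCF10A was grown with 5% horse serum, EGF at 20 ng/mL, hydrocortisone at 100 µg/mL, insulin at 10 µg/mL and cholera toxin at 100 ng/mL, and DCIS.COM with 5% horse serum and none of these additions, so that cell line and medium cannot be told apart. Nothing states that the libraries of a group came from separate cultures, and p-values therefore measure only the spread between these libraries, which may be technical.

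A serpin inhibits by suicide. The protease cleaves an exposed loop of the inhibitor, the loop snaps into the body of the molecule, and the enzyme is dragged along and trapped in a covalent complex. Clade B members lack a classical signal peptide, and most act inside the cell or are released by other routes, where they protect the cell from its own or from foreign proteases. Several are abundant in stratified epithelia such as the epidermis, and SERPINB5, also called maspin, became known in the breast because normal mammary epithelium expresses it and many carcinomas lose it.

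Between 20604377 and 37550457 reads per library were counted on genes, and replicates of a group correlated at 0.996 to 0.997 across genes. Their reads differed most in DCIS.COM with pLOC-MALINC1, at a chi-square per degree of freedom of 20.6. It was 3.78 in DCIS.COM with pLOC-empty, and 3.30 and 6.34 in MCF10A with pLOC-empty and pLOC-MALINC1. The reads were scaled for this by the totals on genes, not by the library sizes behind the CPM. By correlation, DCIS.COM with pLOC-MALINC1 had the closest replicates of the 4 groups, at 0.9969. The limma fit used a single variance per gene over all groups. MALINC1 matched the labels, at 1.0 and 1.51 CPM (reads of a gene scaled to the size of the library) in MCF10A with pLOC-empty against 13.2 and 11.8 with pLOC-MALINC1, and at 1.35 and 1.15 against 24.5 and 19.2 CPM in DCIS.COM. All 8 basal breast epithelial markers were present, summing to between 27202 and 36822 CPM in MCF10A and to between 2747 and 2974 in DCIS.COM. Among markers of other cells, PTPRC, COL1A2 and VWF were among those without a row in the table, and the 2 leukocyte markers that had one, CD14 and CD68, summed to at most 14.3 CPM in any library. Of the fibroblast markers COL1A1 had a row, at 15.1 and 15.9 CPM in MCF10A with pLOC-empty, 7.38 and 6.61 with pLOC-MALINC1 and at most 2.01 in DCIS.COM. Of the endothelial markers PECAM1 had one, at 6.06 and 7.21 CPM in DCIS.COM with pLOC-empty, 0.0874 and 0.177 with pLOC-MALINC1 and at most 1.03 in MCF10A. The part of these markers in the serpin results was not tested. The bulk libraries cannot separate fewer cells expressing a gene from less RNA per cell.

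In the human genome (GRCh37) the members lie in a pair of clusters. SERPINB1 (2832566 to 2842193), SERPINB9 (2887504 to 2903543) and SERPINB6 (2948393 to 2972399) follow each other on the minus strand of chromosome 6. On chromosome 18 the order is SERPINB5 (61144191 to 61172318), SERPINB13 (61254223 to 61271873), SERPINB4 (61304493 to 61311490), SERPINB3 (61322431 to 61329127), SERPINB7 (61420169 to 61472610), SERPINB2 (61538926 to 61571122) and SERPINB8 (61637263 to 61687013), with SERPINB3 and SERPINB4 on the minus strand and the others on the plus strand. Annotated exons of other genes overlap 547 nt of the SERPINB2 transcript, 620 nt of that of SERPINB3 and 460 nt of that of SERPINB8. In SERPINB3 the overlapping gene is SERPINB11 on the opposite strand, and the strand setting of the counting is not given in the sources used here.

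SERPINB3 and SERPINB4, the squamous cell carcinoma antigens, are recent duplicates. Of the 1632 stretches of 76 nt in either transcript, the read length used, 171 (10.5%) occur unchanged in the other, so reads may have been lost or divided between them. Their upstream sequences were nearly the same too. The 250 bases before the start site of each gene, taken from RefSeq and found once each in GRCh37, are shown to make this visible, with the positions that differ in capitals. SERPINB3 lies at chr18:61329128-61329377 and SERPINB4 at chr18:61311491-61311740, both on the minus strand, and both are written 5′ to 3′ on that strand.
SERPINB3: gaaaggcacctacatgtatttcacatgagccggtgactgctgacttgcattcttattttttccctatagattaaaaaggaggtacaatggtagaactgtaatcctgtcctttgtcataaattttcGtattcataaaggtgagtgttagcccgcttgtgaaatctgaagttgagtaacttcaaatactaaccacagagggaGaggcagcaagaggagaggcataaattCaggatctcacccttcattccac
SERPINB4: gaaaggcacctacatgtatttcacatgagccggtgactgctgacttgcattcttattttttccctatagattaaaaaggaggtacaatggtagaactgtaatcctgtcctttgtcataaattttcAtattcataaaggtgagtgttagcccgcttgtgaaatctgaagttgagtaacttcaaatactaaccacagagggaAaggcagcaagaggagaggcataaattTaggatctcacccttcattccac
The sequences were identical at 247 of 250 positions (98.8%). The differences were G126A, G201A and C228T, with the base of SERPINB3 first and positions counted from 1 at the 5′ end. The values of this pair below are given with that uncertainty.

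The upstream sequences of 3 other chromosome 18 members are shown because SERPINB2 and SERPINB13 had the greatest differences in MCF10A, and SERPINB8, a neighbour in the same cluster, a smaller one. Capitals mark TATAAA, the core of the TATA box, and TGAGTCA or its reverse complement TGACTCA, the consensus element of AP-1, a dimer of FOS and JUN proteins.
SERPINB2 (chr18:61554689-61554938, plus strand): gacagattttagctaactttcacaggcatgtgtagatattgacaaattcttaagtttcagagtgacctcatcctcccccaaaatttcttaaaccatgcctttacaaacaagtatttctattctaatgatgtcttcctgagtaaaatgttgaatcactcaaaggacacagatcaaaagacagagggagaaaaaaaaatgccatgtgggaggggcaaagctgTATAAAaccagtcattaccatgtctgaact
SERPINB13 (chr18:61254327-61254576, plus strand): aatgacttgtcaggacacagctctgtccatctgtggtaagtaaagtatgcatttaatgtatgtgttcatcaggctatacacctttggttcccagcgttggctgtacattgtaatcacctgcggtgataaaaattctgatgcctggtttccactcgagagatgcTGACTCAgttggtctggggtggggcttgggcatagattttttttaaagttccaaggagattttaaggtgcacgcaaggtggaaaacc
SERPINB8 (chr18:61637065-61637314, plus strand): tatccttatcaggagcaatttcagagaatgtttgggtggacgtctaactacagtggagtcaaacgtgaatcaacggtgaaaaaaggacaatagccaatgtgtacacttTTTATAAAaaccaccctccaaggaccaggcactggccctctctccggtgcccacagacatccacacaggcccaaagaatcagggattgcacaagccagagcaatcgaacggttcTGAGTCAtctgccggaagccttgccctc
In SERPINB2 the TATAAA lay 30 to 25 bases before the RefSeq start site, with no AP-1 match in the window. SERPINB13 had an AP-1 match 87 to 81 bases before its start site and SERPINB8 one 28 to 22 bases before its own. SERPINB8 also held overlapping TATAAA matches on the plus and minus strands. SERPINB7, not shown, had AP-1 matches before separate start sites, 39 to 33 and 45 to 39 bases upstream. Its difference in MCF10A did not pass in limma (log2 fold change 0.15, adjusted p = 0.328). Any part of the AP-1 matches in the responses was not tested. RefSeq had 15 start sites for the 10 members, and on both strands AP-1 matches were found in 3 members (SERPINB7, SERPINB8 and SERPINB13) and TATAAA in 4 (SERPINB2, SERPINB7, SERPINB8 and SERPINB9). Counted by window, 4 of the 15 held an AP-1 match and 4 TATAAA. Of all 35116 upstream windows of this length in the RefSeq table, 4.20% held an AP-1 match and 10.7% TATAAA, and the shares were 3.18% and 6.38% of the 15356 windows of genes measured here. TGACGTCA, the cAMP response element, was in 1.65% of all windows, and the kappa B element in 0.527%, and 0 members held either.

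SERPINB5 was the most abundant member in every group. Levels of different genes were compared as CPM per kb of transcript (the MANE Select transcript of each gene). SERPINB5 had 467.8 ± 8.0 CPM per kb in MCF10A with pLOC-empty and 593 ± 5.2 with pLOC-MALINC1, against 73.0 ± 3.5 and 122 ± 0.64 in DCIS.COM (SD, n = 2 throughout). That was 77.8% and 72.6% of the summed level of the 10 members in MCF10A, and 53.3% and 66.7% in DCIS.COM. SERPINB6, an inhibitor of cathepsin G and other serine proteases, came next in all groups, at 77.1 ± 1.3, 72.0 ± 2.1, 40.9 ± 0.24 and 41.0 ± 0.44 CPM per kb in the same order.

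Below these genes the order depended on the group. In MCF10A with pLOC-empty it continued with SERPINB1 at 26.2, SERPINB7 at 15.5, SERPINB2 at 6.79, SERPINB8 at 3.95, SERPINB3 at 1.66, SERPINB9 at 1.12, SERPINB13 at 0.743 and SERPINB4 at 0.310 CPM per kb. SERPINB9 could not be separated there from SERPINB13, since its SD was 0.40. With pLOC-MALINC1 SERPINB2 stood at 65.7 ± 5.6 CPM per kb, beside SERPINB6, and above SERPINB1 at 50.2 ± 1.0. SERPINB13 stood at 6.59 ± 0.88, within its SD of SERPINB8 at 7.16 ± 0.38. In DCIS.COM, in contrast, SERPINB2 and SERPINB13 were near the bottom, at 0.396 and 0.0149 CPM per kb with pLOC-empty and at 0.831 and 0.0327 with pLOC-MALINC1. SERPINB7 and SERPINB3 were not separable in DCIS.COM with pLOC-empty, at 1.27 ± 0.11 and 1.06 ± 0.28 CPM per kb.

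**Figure D1:**
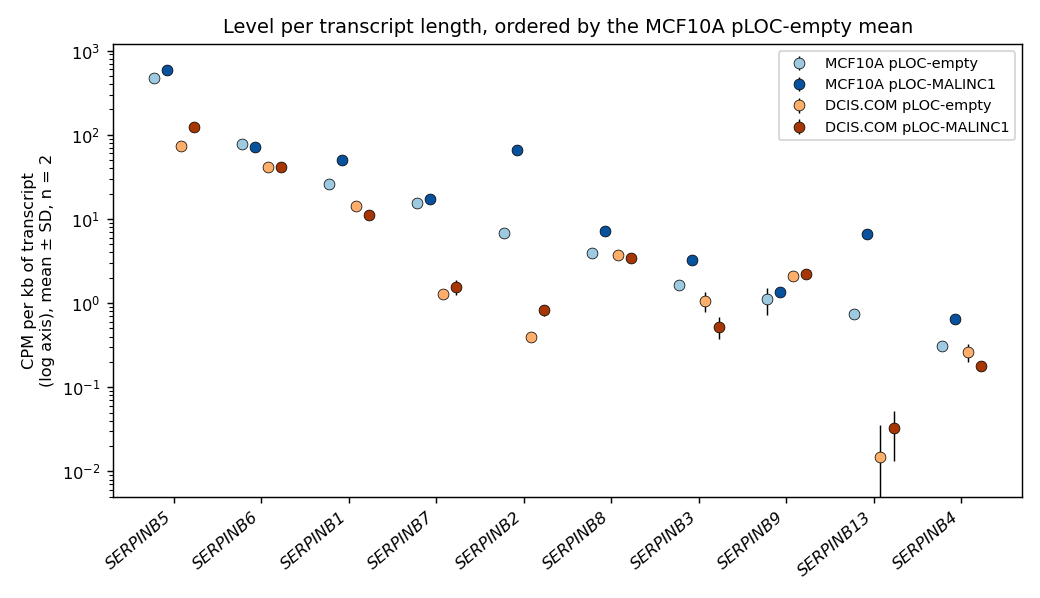
Mean level per transcript length (CPM per kb, log axis) of the 10 members in the 4 groups, with bars for the SD of 2 libraries and genes ordered by their mean in MCF10A with pLOC-empty. SERPINB5 is at the top in every group, from 73.0 to 593 CPM per kb, SERPINB2 spans from 0.396 to 65.7, and the lower bar of SERPINB13 in DCIS.COM with pLOC-empty runs off the axis because its SD is greater than its mean.

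The first question was what MALINC1 overexpression did to these genes in the normal line. In MCF10A, 7 of the 10 members rose, which here means an adjusted p below 0.01 for a higher level in limma, and 0 fell. Of all 13842 genes, 21.5% rose and 18.1% fell by the same rule. With the further demand of a change over 2-fold, used by the study for its differentially expressed genes (DEGs), 2 members were higher, SERPINB2 and SERPINB13, against 2.99% of all genes. The median log2 fold change of the 10 members was 0.89, and that of all genes was 0 to within rounding.

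SERPINB2, the plasminogen activator inhibitor that blocks urokinase, had 11.9 and 14.0 CPM in MCF10A with pLOC-empty and 133 and 118 CPM with pLOC-MALINC1. Both overexpressing libraries lay far above both controls. The log2 fold change was 3.27 (standard error 0.13, adjusted p = 1.62e-09), or 9.65-fold. SERPINB13, known as headpin or hurpin, is a keratinocyte inhibitor of the cysteine proteases cathepsin L and cathepsin K. It had 2.17 and 2.48 CPM with pLOC-empty and 22.6 and 18.7 with pLOC-MALINC1. The groups were again well apart, by 8.61-fold (log2 fold change 3.11, standard error 0.36, adjusted p = 1.67e-05).

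Rises under 2-fold were seen in 5 further members, SERPINB1, SERPINB3, SERPINB4, SERPINB5 and SERPINB8. SERPINB1, an inhibitor of the neutrophil proteases elastase, proteinase 3 and cathepsin G, went from 63.1 and 66.6 CPM to 126 and 123 CPM (log2 fold change 0.94, standard error 0.066, adjusted p = 2.16e-07). SERPINB8, which can inhibit furin, went from 12.9 and 13.3 to 22.9 and 24.7 CPM (log2 fold change 0.85, standard error 0.077, adjusted p = 1.98e-06). In both genes the spread between replicates was small against the step between groups. SERPINB3, an inhibitor of cysteine cathepsins, had 2.97 and 2.70 against 5.32 and 5.89 CPM (log2 fold change 0.97, standard error 0.22, adjusted p = 0.00303). SERPINB4, which targets cathepsin G and mast cell chymase, had 0.483 and 0.576 against 1.06 and 1.13 CPM (log2 fold change 0.96, standard error 0.26, adjusted p = 0.00747). The latter value rested on 14 and 13 reads with pLOC-empty and 38 and 30 with pLOC-MALINC1. Both calls were lost when any 1 of the 4 MCF10A libraries was left out, with adjusted p up to 0.0319 for SERPINB3 (without pLOC-MALINC1 replicate 2) and up to 0.0452 for SERPINB4 (without pLOC-empty replicate 1).

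SERPINB5, which unlike most members does not inhibit proteases, was already the most abundant and rose by a smaller factor. It had 1224 and 1195 CPM with pLOC-empty and 1543 and 1524 with pLOC-MALINC1 (log2 fold change 0.34, standard error 0.036, adjusted p = 7.28e-06). Its libraries did not overlap between the groups, as was so for 9 of the 10 members and for 76.5% of all genes. The remaining members did not pass the test. SERPINB6 had 100.1 and 103 CPM against 92.6 and 96.6 (log2 fold change -0.10, standard error 0.038, adjusted p = 0.0459). SERPINB7, a keratinocyte serpin whose loss causes a thickening of the skin of palms and soles, had 33.8 and 34.4 against 38.6 and 37.1 CPM (log2 fold change 0.15, standard error 0.12, adjusted p = 0.328). The granzyme B inhibitor SERPINB9 had 3.48 and 5.80 against 5.80 and 5.36 CPM, with overlapping libraries (log2 fold change 0.31, standard error 0.19, adjusted p = 0.187). Without pLOC-empty replicate 2, SERPINB9 passed in MCF10A at 0.67 (adjusted p = 0.00332), and without replicate 1 it was at -0.056. SERPINB6 passed as lower with quantile normalization (-0.15, adjusted p = 0.00584). Missing the threshold does not show equal levels for any of the 3.

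**Figure D2:**
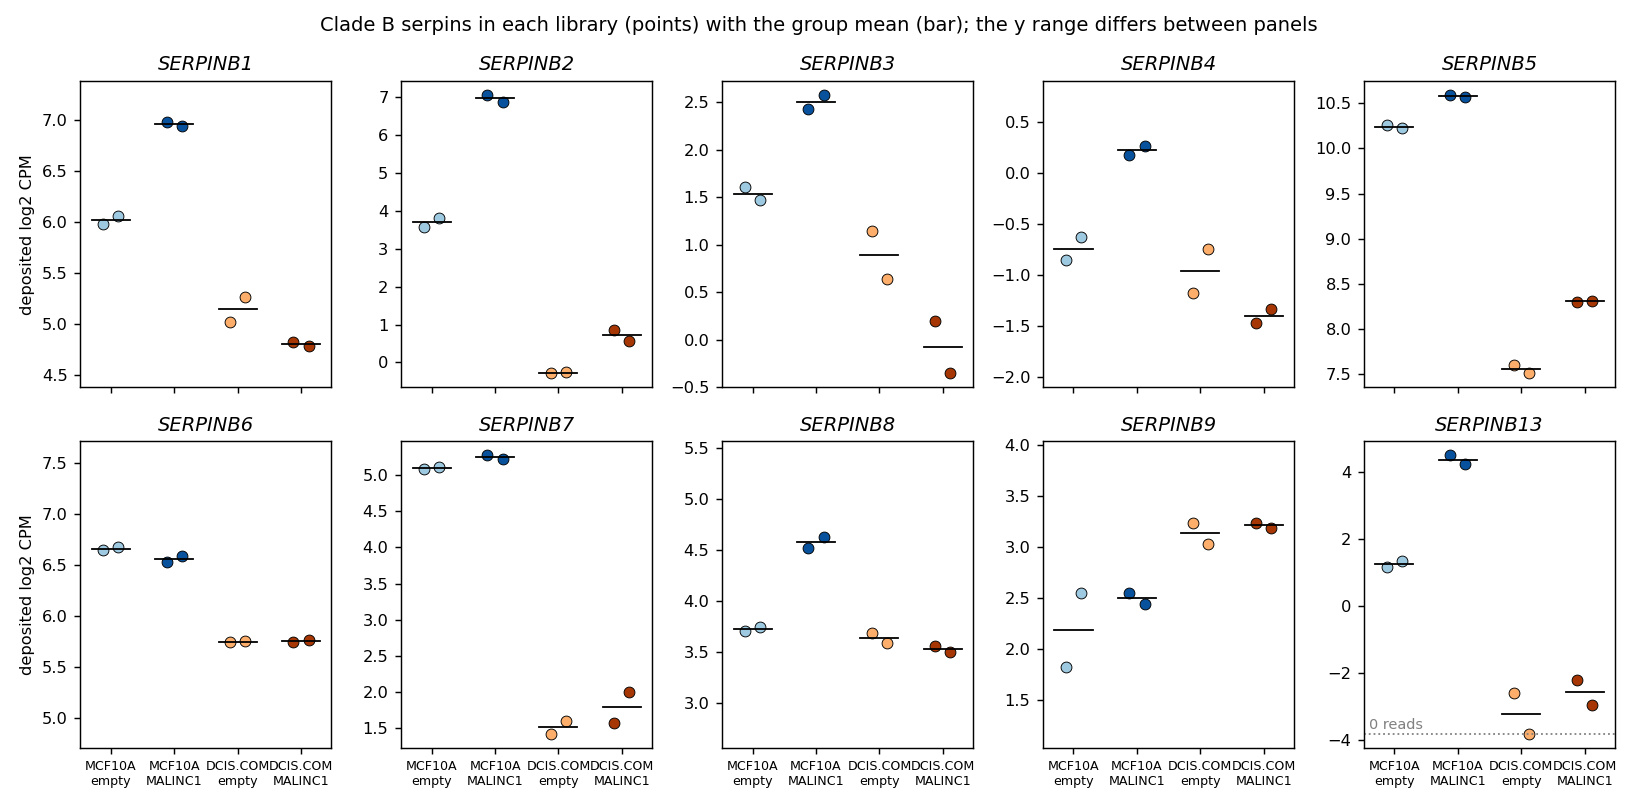
Deposited log2 CPM of each member in each of the 8 libraries (points) with the mean of each group (bar), 1 panel per gene and a y range of its own in each. SERPINB2 and SERPINB13 step up between the MCF10A groups, and the DCIS.COM libraries of SERPINB13 lie at or near the dotted line for 0 reads.

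In DCIS.COM the same vector gave a different picture. There 2 members rose, SERPINB2 and SERPINB5, against 16.4% of all genes, and 2 fell, SERPINB1 and SERPINB3, against 16.7%. None of the 10 members was a DEG by limma, against 4.53% of all genes, since these 4 members changed by less than 2-fold. Limma-voom on the reads recovered from the table called 1, SERPINB3. The median log2 fold change of the members was 0.041, beside 0.0089 over all genes.

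SERPINB2 had 0.746 and 0.764 CPM in DCIS.COM with pLOC-empty and 1.75 and 1.42 with pLOC-MALINC1. The libraries did not overlap, as was so for 6 of the 10 members and for 73.0% of all genes. All 4 lay far below those of MCF10A. The log2 fold change was 0.99 (standard error 0.13, adjusted p = 5.78e-05), or 1.99-fold, so that the gene missed the fold limit narrowly, and limma-voom gave an adjusted p = 0.0394. SERPINB5 had 195 and 182 CPM against 315.6 and 318 (log2 fold change 0.75, standard error 0.036, adjusted p = 9.48e-09), with the groups again apart. It was the only member of the 10 that rose in DCIS.COM by more than in MCF10A in a test of the difference.

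SERPINB1 went the other way in DCIS.COM, with 32.5 and 38.4 CPM against 28.2 and 27.4 (log2 fold change -0.34, standard error 0.066, adjusted p = 0.00103). SERPINB3 likewise had 2.15 and 1.48 CPM against 1.08 and 0.709 (log2 fold change -0.97, standard error 0.22, adjusted p = 0.00352). For both, the pLOC-MALINC1 libraries were below both controls, although the controls of each differed visibly between themselves. The call of SERPINB1 was lost without pLOC-MALINC1 replicate 2 (adjusted p = 0.0136) and that of SERPINB3 without pLOC-empty replicate 1 or pLOC-MALINC1 replicate 2 (adjusted p = 0.0441 and 0.0437). Both also missed 0.01 when only the 4 DCIS.COM libraries entered the fit (adjusted p = 0.0401 and 0.0517) and without the trend (0.0233 and 0.0220). SERPINB4 had 0.373 and 0.525 against 0.291 and 0.325 CPM, and did not pass (adjusted p = 0.183). SERPINB13 gave 2 and 0 reads with pLOC-empty and 5 and 2 reads with pLOC-MALINC1, at or close to a floor of 3 reads, so no fold is given.

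The other 4 members did not pass in DCIS.COM. SERPINB6 had 53.5 and 54.0 CPM against 53.6 and 54.4 (log2 fold change 0.0056, standard error 0.038, adjusted p = 0.923). SERPINB7 had 2.61 and 2.96 against 2.91 and 3.93 (adjusted p = 0.0890, or 0.00531 without pLOC-MALINC1 replicate 1), SERPINB8 12.8 and 12.0 against 11.7 and 11.2 (adjusted p = 0.246) and SERPINB9 9.37 and 8.12 against 9.35 and 9.04 (adjusted p = 0.769). The libraries of SERPINB6, SERPINB7 and SERPINB9 overlapped between the vectors.

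**Figure D3:**
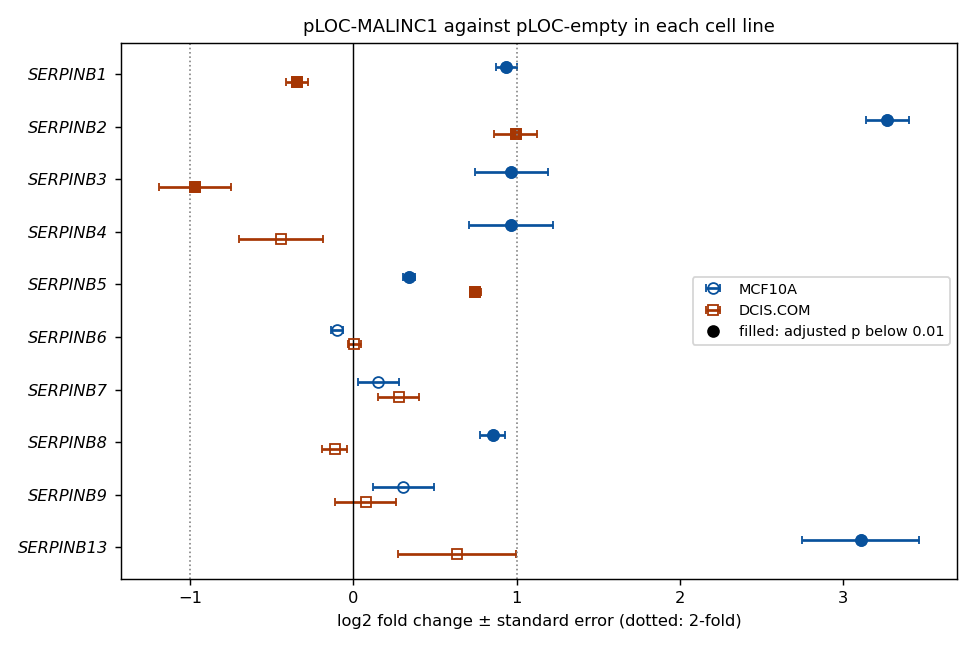
Log2 fold change of pLOC-MALINC1 against pLOC-empty, with its standard error, for each member in MCF10A (circles) and DCIS.COM (squares), filled where the adjusted p was below 0.01 and with dotted lines at 2-fold. SERPINB2 and SERPINB13 stand out in MCF10A at 3.27 and 3.11, and SERPINB1 and SERPINB3 lie on opposite sides of 0 in the lines.

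The difference between the responses was tested directly as the DCIS.COM minus the MCF10A log2 fold change. It passed the adjusted p of 0.01 for 7 members, against 35.9% of all genes, and was lower in DCIS.COM by more than 2-fold for 5 of them, SERPINB1, SERPINB2, SERPINB3, SERPINB4 and SERPINB13, against 5.22% of all genes. SERPINB2 rose in both lines, with a difference of -2.28 (standard error 0.18, adjusted p = 8.82e-07). SERPINB1 and SERPINB3 rose in MCF10A and fell in DCIS.COM, with differences of -1.28 (standard error 0.093, adjusted p = 3.25e-07) and -1.94 (standard error 0.31, adjusted p = 0.000288). For SERPINB4 the difference was -1.40 (standard error 0.36, adjusted p = 0.00682), and it stayed below 0.01 in 1 of the 8 fits that left out a library, the one without DCIS.COM pLOC-empty replicate 1 (adjusted p up to 0.0246 in the others).

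SERPINB8 rose in MCF10A and did not pass in DCIS.COM, and the difference was -0.97 (standard error 0.11, adjusted p = 1.49e-05). For SERPINB13 the fitted difference of -2.47 (standard error 0.51, adjusted p = 0.00161) depends on the prior count, because the DCIS.COM libraries had 5 reads at most, and the call was lost with limma-voom (adjusted p = 0.0652), without the trend (0.0218) and without MCF10A pLOC-MALINC1 replicate 1 (0.0125). SERPINB5 had the opposite sign, with a difference of 0.40 (standard error 0.051, adjusted p = 3.76e-05). SERPINB6, SERPINB7 and SERPINB9 did not pass, at adjusted p = 0.129, 0.583 and 0.493.

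The next comparison was between the lines. With the empty vector, 6 members were lower in DCIS.COM than in MCF10A, against 36.0% of all genes, and 1, SERPINB9, was higher, against 37.9%. By the DEG rule 4 were lower, SERPINB2, SERPINB5, SERPINB7 and SERPINB13, against 13.0% of all genes. The members' median log2 fold change was -0.89, beside 0.031 over all genes. With pLOC-MALINC1 in both lines, 9 members were lower, against 37.2% of all genes, and SERPINB9 was again higher, against 35.7%. By the DEG rule 8 were then lower, all but SERPINB6 and SERPINB9, against 12.2% of all genes, with a median of -2.22 beside 0.0055. Both comparisons include the libraries already described, and the values given above for each member serve for them too.

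In the empty-vector libraries SERPINB7 differed by 12.0-fold, from 33.8 and 34.4 CPM in MCF10A to 2.61 and 2.96 in DCIS.COM (log2 fold change -3.58, standard error 0.12, adjusted p = 3.21e-11). With pLOC-MALINC1 the difference of SERPINB7 was much the same, at -3.46 (standard error 0.12). Maspin, SERPINB5, was 6.41-fold lower in DCIS.COM with pLOC-empty (log2 fold change -2.68, standard error 0.036, adjusted p = 8.24e-15) and 4.84-fold lower with pLOC-MALINC1 (adjusted p = 5.10e-14). SERPINB2 was 15.7-fold lower with pLOC-empty (log2 fold change -3.97, adjusted p = 1.88e-11) and 76.0-fold lower with pLOC-MALINC1 (log2 fold change -6.25, adjusted p = 3.77e-13). SERPINB13 was at least 16.4-fold lower in DCIS.COM with pLOC-empty, taken against 3 reads per library.

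Smaller line differences held for SERPINB6, with 100.1 and 103 CPM in MCF10A and 53.5 and 54.0 in DCIS.COM (log2 fold change -0.91, standard error 0.038, adjusted p = 1.92e-10), and for SERPINB1 (log2 fold change -0.88, standard error 0.066, adjusted p = 5.93e-08). SERPINB9 was higher in DCIS.COM in both settings, with log2 fold changes of 0.94 (standard error 0.19, adjusted p = 0.000440) and 0.71 (standard error 0.19, adjusted p = 0.00338). The latter call was lost without any 1 of the 4 pLOC-MALINC1 libraries (adjusted p from 0.0147 to 0.0298). SERPINB3, SERPINB4 and SERPINB8 did not pass with pLOC-empty (adjusted p = 0.0174, 0.445 and 0.338), although SERPINB3 passed as lower under 5 alternatives. These were pseudocounts of 1 and 0.5 CPM (adjusted p = 0.00525 and 0.00731), quantile normalization (0.00260), a replicate block with the numbers crossed in MCF10A (0.00563) and leaving out DCIS.COM pLOC-empty replicate 1 (0.00715). All 3 were lower in DCIS.COM once both lines carried pLOC-MALINC1, at log2 fold changes of -2.58, -1.62 and -1.05 (adjusted p = 2.51e-07, 7.56e-05 and 5.37e-08), and each change of that gap is the difference between responses tested above. Quantile normalization turned SERPINB4 with pLOC-empty into a DEG, at -1.26 (adjusted p = 0.00101).

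**Figure D4:**
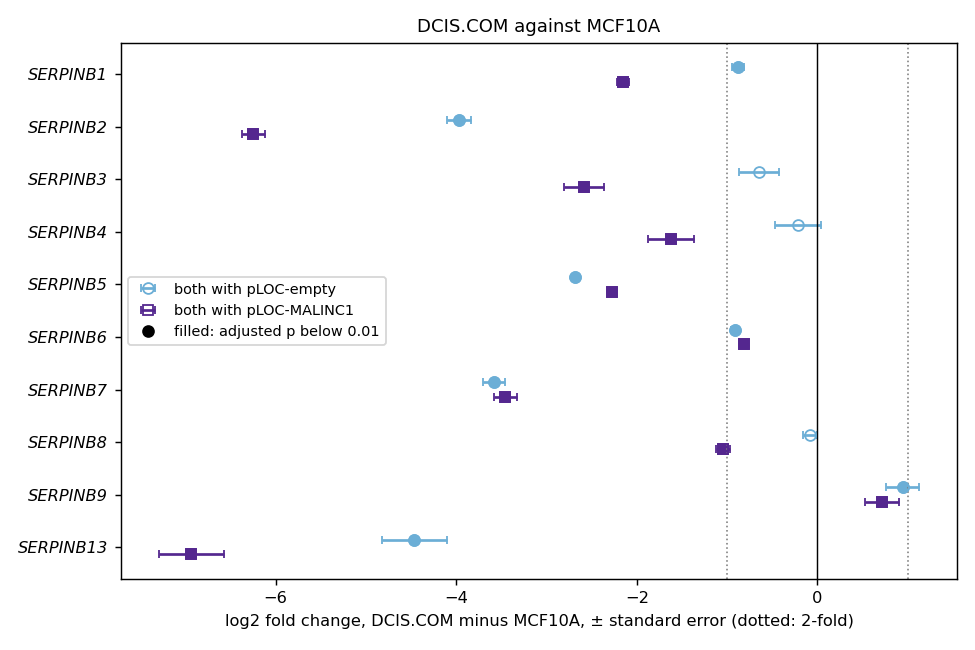
Log2 fold change of DCIS.COM against MCF10A, with its standard error, when both carried pLOC-empty (circles) or pLOC-MALINC1 (squares), filled where the adjusted p was below 0.01. All members but SERPINB9 lie left of 0, though SERPINB3, SERPINB4 and SERPINB8 did not pass with pLOC-empty. SERPINB13 and SERPINB2 lie farthest to the left. The place of SERPINB13 depends on the prior count, since its DCIS.COM libraries had 5 reads at most. With pLOC-empty it ranged from -5.46 (limma-voom) to -1.67 (pseudocount of 1 CPM).

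The basal markers moved in both kinds of contrast. KRT14 had 1479 and 1424 CPM in MCF10A with pLOC-empty, 2954 and 2890 with pLOC-MALINC1, and between 21.1 and 33.6 in DCIS.COM. All 8 basal markers rose in MCF10A with pLOC-MALINC1 and 6 of 8 were lower in DCIS.COM with pLOC-empty, with medians of 0.46 and -1.72. TP63, on the same list, was higher in DCIS.COM with pLOC-empty (log2 fold change 3.51). With pLOC-MALINC1 in DCIS.COM 2 of the 8 rose and 2 fell, with a median of 0.00066. By the same rule 21.5% of all genes rose in MCF10A, 36.0% were lower between the lines, and 16.4% rose and 16.7% fell in DCIS.COM. The part of the basal markers in the serpin results was not tested.

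The members were also set beside the genes that flank each cluster. Those tested reach far beyond the clusters. On chromosome 18 they run from RNF152, starting at 59475300, to TMX3, ending at 66382345. On chromosome 6 they run from DUSP22, starting at 291630, to PRPF4B, ending at 4065217. On chromosome 18, 6 of 7 members rose in MCF10A with pLOC-MALINC1, against 21.5% of all genes, with a median of 0.96, and the calls of SERPINB3 and SERPINB4 among them were lost without any 1 MCF10A library. Of 12 flanking genes tested, 4 rose and 1 fell, with a median of 0.054. The flanking genes that rose were RNF152 (log2 fold change 1.28), KDSR (0.71), TMX3 (0.26) and VPS4B (0.19), and DSEL fell (-0.48). KDSR and VPS4B lie next to SERPINB5. Within the cluster the response was uneven, since SERPINB7, between SERPINB3 and SERPINB2, did not pass, and SERPINB5, beside SERPINB13, changed by 0.34. On chromosome 6, 1 of 3 members rose, SERPINB1, against the same 21.5% of all genes. Of 17 flanking genes tested there, 4 rose (FOXC1 at 0.54, FOXQ1 at 0.33, WRNIP1 at 0.31 and EXOC2 at 0.18) and PXDC1 fell (-0.48).

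Between the lines, with pLOC-empty, 4 of the 7 chromosome 18 members were lower in DCIS.COM, with a median of -2.68. Of all genes, 36.0% were lower and 37.9% higher by the same rule. Their flanking genes went both ways, with 5 higher and 6 lower of 12 and a median of -0.16. VPS4B was at -1.14 and KDSR at -0.28, while BCL2, the apoptosis inhibitor, was at 1.78. On chromosome 6 the 3 members had a median of -0.88 and 17 flanking genes one of -0.31, with 6 higher and 9 lower.

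**Figure D5:**
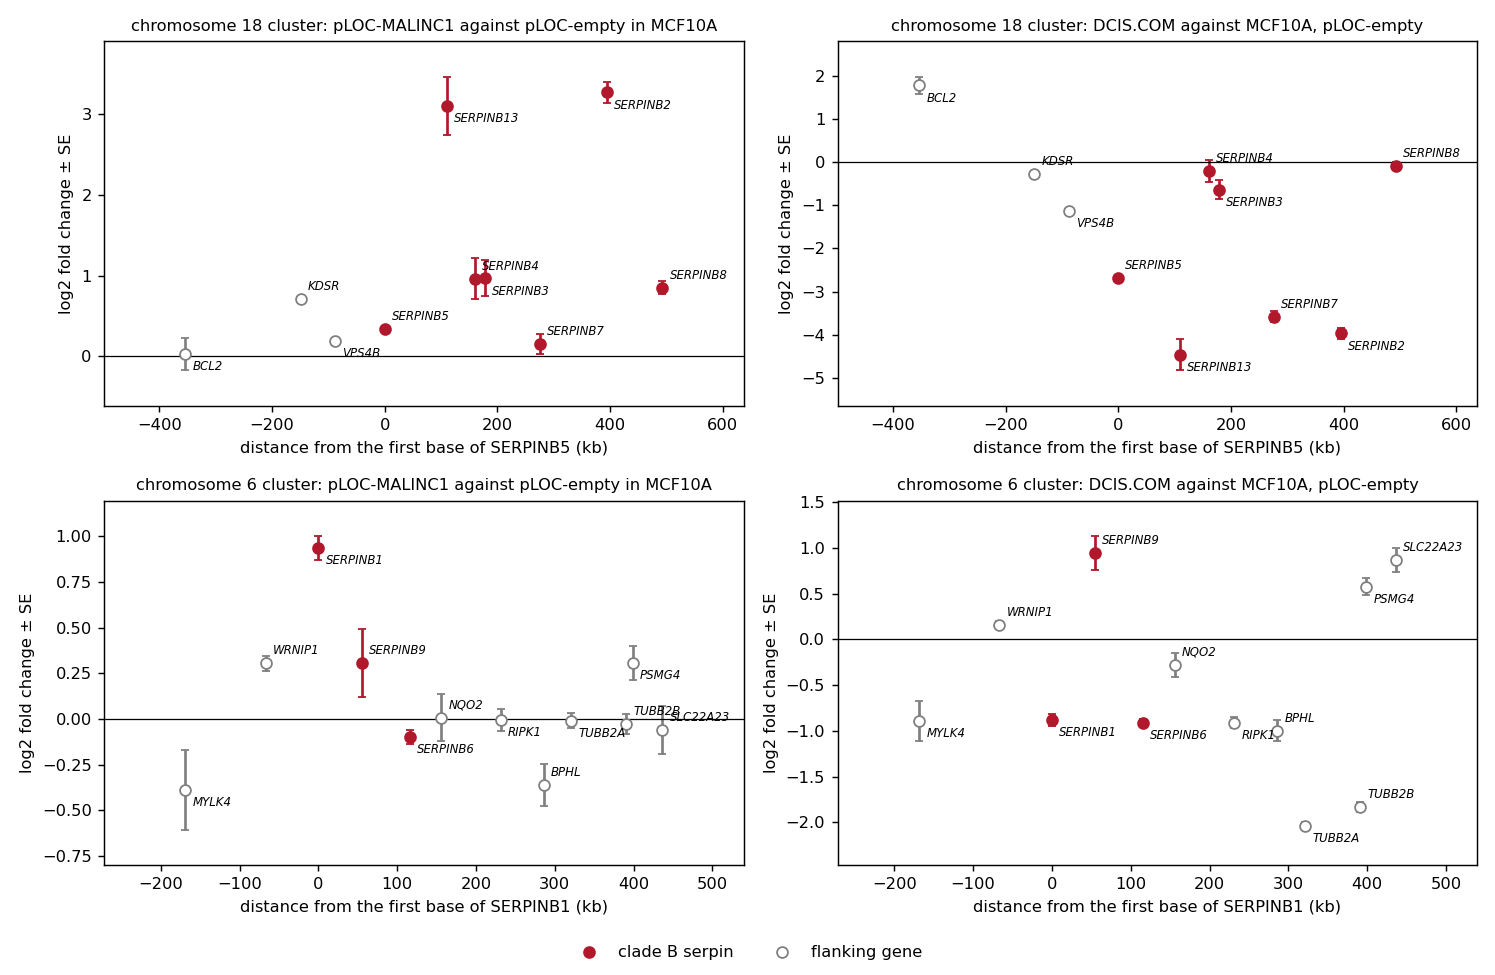
Log2 fold change with its standard error against the distance (kb) from the first base of SERPINB5 (top) or SERPINB1 (bottom). Members are filled and flanking genes open, with MALINC1 in MCF10A on the left and DCIS.COM against MCF10A with pLOC-empty on the right. Only the flanking genes nearest to each cluster are drawn, on chromosome 18 BCL2, KDSR and VPS4B. RNF152, TMX3, DSEL, FOXC1, FOXQ1, EXOC2 and PXDC1 lie outside the panels. SERPINB13 and SERPINB2 rise above neighbours between them, such as SERPINB7 at 0.15.

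Proteases that clade B serpins are described to inhibit were looked at as a list of 14, of which 9 were in the table. In MCF10A with pLOC-MALINC1, 5 of these rose and 2 fell, against 21.5% and 18.1% of all genes. The median log2 fold change was 0.22. The tissue plasminogen activator PLAT, a target of SERPINB2, rose from 7.0 and 7.17 CPM to 31.7 and 33.2 (log2 fold change 2.18, adjusted p = 1.02e-11). The urokinase gene PLAU, the other target, rose from 140.6 and 139.7 to 207 and 215 CPM (log2 fold change 0.59), and CTSV, a cathepsin L relative, by 0.29. The cysteine protease gene CTSS and the kallikrein gene KLK5 fell, by 1.05 and 0.75 on the log2 scale. In DCIS.COM 3 proteases rose and 1 fell, against 16.4% and 16.7% of all genes, with a median of -0.039. Among the rises KLK8 was near the floor, with 0 and 0 reads with pLOC-empty and 3 and 4 with pLOC-MALINC1. KLK5 there went from 95.0 and 102 to 259 and 281 CPM (log2 fold change 1.45, adjusted p = 5.90e-10), FURIN rose by 0.52 and PLAU fell by 0.40 on the log2 scale.

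Between the lines PLAT and PLAU, the pair of plasminogen activators, differed in opposite directions. With pLOC-empty PLAT had 265 and 271 CPM in DCIS.COM, a log2 fold change of 5.23 over MCF10A, and PLAU had 30.7 and 28.3, a log2 fold change of -2.25. Of the 9 proteases 2 were higher in DCIS.COM and 7 lower, against 37.9% and 36.0% of all genes, with a median of -1.13. GZMB, the target of SERPINB9, reached only 0.746 and 0.716 CPM in DCIS.COM with pLOC-empty, and had at most 2 reads per library in MCF10A with that vector.

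Among serpins of other clades, 9 of 22 were in the table. In MCF10A with pLOC-MALINC1, 3 rose and 2 fell, against 21.5% and 18.1% of all genes, with a median of 0.14. SERPINA1, alpha-1-antitrypsin, rose (log2 fold change 2.61), as did SERPINA3 (1.15). SERPINA5, the protein C inhibitor, fell from 17.0 and 17.3 to 6.74 and 7.67 CPM (log2 fold change -1.25, adjusted p = 1.12e-07). In DCIS.COM 3 rose and 3 fell, against 16.4% and 16.7% of all genes, with a median of -0.11. SERPINA1 fell there from 162 and 171 to 4.40 and 4.43 CPM (log2 fold change -5.21). Between the lines with pLOC-empty, 7 of the 9 were higher in DCIS.COM and 1 lower, against 37.9% and 36.0% of all genes. The median was 1.88, and the higher ones included SERPINA1 (log2 fold change 8.45) and SERPINA3 (5.19).

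Of 11 other epithelial protease inhibitors, 4 rose and 1 fell in MCF10A with pLOC-MALINC1, against 21.5% and 18.1% of all genes. The median was 0.091. SPINK5, a kallikrein inhibitor of the epidermis, rose by 2.18 and CSTA, a cysteine protease inhibitor of keratinocytes, by 1.45 on the log2 scale. SPINK6 fell from 13.6 and 13.3 to 6.77 and 6.61 CPM. In DCIS.COM 2 rose and 7 fell, against 16.4% and 16.7% of all genes, with a median of -0.32. The rise of SPINK6 there was near the floor, with 1 and 0 reads with pLOC-empty and 4 and 6 with pLOC-MALINC1. CSTA had 27.1 and 28.2 CPM there with pLOC-empty and 13.6 and 14.4 with pLOC-MALINC1 (log2 fold change -0.98). Between the lines with pLOC-empty 4 were higher in DCIS.COM and 5 lower, against 37.9% and 36.0% of all genes. The median was 0.024.

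Transcription factors of the AP-1, NF-kB and p63 families, 14 genes in all, had 3 rises and 4 falls in MCF10A. Of all genes 21.5% rose and 18.1% fell there, and the factors had a median of -0.015. The rises were those of TP63 (log2 fold change 3.04), FOSL1 (1.76) and FOS (1.63), and the falls those of JUN (-0.91), FOSL2 (-0.84), JUND (-0.65) and JUNB (-0.23). In DCIS.COM JUN (0.59), FOSL1 (0.53) and JUNB (0.36) rose and 4 factors fell, FOSL2 (-2.12), NFKB2 (-0.70) and RELB (-0.51) among them. The median there was -0.20, and 16.4% of all genes rose and 16.7% fell. With pLOC-empty, 5 factors were higher in DCIS.COM and 6 lower, against 37.9% and 36.0% of all genes. The factors had a median of 0.018, with JUN at -4.29 and TP63 at 3.51.

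For each member whose group means spanned more than 2-fold, the genes of the whole table with the most similar profile over the 8 libraries were identified by the root mean square difference of mean-centred log2 CPM. SERPINB2 and SERPINB13 were each other's nearest gene, at 0.46, with a Pearson correlation of 0.991. The next were GBP6 for SERPINB2, at 0.69, and DUOXA1 for SERPINB13, at 0.70. SERPINB5 was closest to ZNF365 (0.15) and RAB11FIP1 (0.15), SERPINB7 to LCP1 (0.17) and CRYBG2 (0.19), SERPINB1 to B4GALNT3 (0.14) and DOCK4 (0.16), and SERPINB3 to NAV3 (0.25) and SLC37A2 (0.27). SERPINB4 was closest to MXD1 (0.13) and MICAL2 (0.14), SERPINB8 to PKP2 (0.094) and EFNB1 (0.10), and SERPINB9 to PEAK3 (0.086) and RWDD2A (0.094). The 8 points of each profile share cell line and vector, so these likenesses are a description and no test.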

How the data were processed

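Transcript levels were measured by RNA-seq in MCF10A and in DCIS.COM carrying pLOC-empty or pLOC-MALINC1, with 2 libraries in each of 4 groups. Per the paper's methods, the authors used Rsubread to map 76 nt paired-end reads to hg19, featureCounts for counting on UCSC gene models and edgeR for normalization. They deposited log2 CPM that include a prior count of 2, proportional to library size. With the prior removed, 100% of the values lay within 0.05 of a whole read, and CPM are given on that basis. Strand setting, filter and tool versions are not given in the sources used here.

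The main test was limma (version 3.58.1, R 4.3.3) with lmFit and a trended eBayes, using 4 group means over 8 libraries and Benjamini-Hochberg adjustment over all 13842 genes. Every gene passed a filter of 0.5 CPM in 2 or more libraries. There were 4 residual degrees of freedom and a prior of 7.98. The study's thresholds were used, namely over 2-fold at an adjusted p below 0.01. The main limma fit alone was tried on simulated reads. These had the same spread in every group, so unequal spread between groups was not covered. Python 3.11.15 with pandas 2.3.3, numpy 2.4.6 and matplotlib 3.10.9 served for tables and plots. Positions follow GENCODE on GRCh37, and upstream sequences RefSeq (GRCh38.p14), each matched to GRCh37. All 10 members were named, and of each gene list at most the 3 largest rises and falls at 1 CPM or more, or the called genes for factors and flanking genes. GZMB, KRT14 and the flanking genes named between the lines were picked after their values were seen. Some listed genes are counted but not reported here by name. The members and lists were chosen with earlier results of these data known. Alternatives changed the pseudocount, filter, scaling, model, thresholds and libraries.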

Additional observations from a re-analysis of the deposited data

Results flagged for a closer look

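The response to MALINC1 differed between MCF10A and DCIS.COM for 7 of the 10 clade B serpins, by a direct test of the difference in limma with an adjusted p below 0.01, as it did for 35.9% of all genes. As DCIS.COM minus MCF10A log2 fold changes, the differences were -1.28 for SERPINB1, -2.28 for SERPINB2, -1.94 for SERPINB3, -1.40 for SERPINB4, 0.40 for SERPINB5, -0.97 for SERPINB8 and -2.47 for SERPINB13. The call of SERPINB4 was lost in 7 of the 8 fits that left out a library, and that of SERPINB13 with limma-voom, without the trend and without MCF10A pLOC-MALINC1 replicate 1. The value of SERPINB13 depends on the prior count, and those of SERPINB3 and SERPINB4 carry the uncertainty of shared reads. With 2 libraries per group, no search for single libraries far from the others of their group was made.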

How the results depend on the processing

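Of 990 alternative values for the 50 values of members, 934 kept their direction and their side of the threshold. Another 18 lost the call, 31 gained it and 7 changed sign, 0 of these with an adjusted p below 0.01. Of the 990, 890 were refits judged by the DEG rule. The rest were the main fit judged at an adjusted p below 0.05 over 2-fold, or below 0.01 at any fold. The gains therefore include calls made only by dropping the fold limit, which took the MCF10A count from 2 to 7. At any fold, 36 of 890 lost the adjusted p of 0.01, 23 of them when a library was left out, and 9 gained it. Fits without a filter are not counted, since every gene passed it. The count of member DEGs in DCIS.COM, 0 in limma, was 2 with quantile normalization (SERPINB2 and SERPINB3), 1 with median scaling (SERPINB2) and 1 with limma-voom (SERPINB3), and ranged from 0 to 2 when 1 library was left out. It was 2 without pLOC-empty replicate 2 (SERPINB2 and SERPINB3) and 1 without pLOC-MALINC1 replicate 1 (SERPINB3) or replicate 2 (SERPINB2). At any fold the counts were 7 in MCF10A, 4 in DCIS.COM and 7 between the lines with pLOC-empty. Members over 2-fold different in response numbered 3 with limma-voom instead of 5, without SERPINB4 and SERPINB13. Why these counts moved was not tested, apart from the fold limit. The sign changes were those of SERPINB6 in DCIS.COM with quantile normalization (-0.0066) and, over the left-out libraries, of SERPINB9 in MCF10A (range -0.056 to 0.67), SERPINB6 and SERPINB9 in DCIS.COM (-0.0054 to 0.017 and -0.027 to 0.18), and the difference in response of SERPINB7 (-0.087 to 0.34) and SERPINB9 (-0.59 to 0.13). A fit that left 1 library in a group assumed that it varies like the other groups.

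Equal replicate numbers correlated in their deviations at -0.16 in MCF10A and 0.11 in DCIS.COM over 10742 genes. The labels give no pairing beyond the number, and weak correlations cannot show that none existed. With the replicate block, which changed no call of a member at any fold, the counts of member DEGs were 2, 0, 5, 4 and 8, as without it, and a crossed pairing in MCF10A, added after seeing the data, gave 2, 0, 5, 4 and 8. At any fold the crossed pairing made SERPINB3 lower in DCIS.COM with pLOC-empty (adjusted p = 0.00563 instead of 0.0174). The reads limit SERPINB13 in DCIS.COM and SERPINB4 everywhere.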
